A study of Rattus norvegicus with 12 samples.

Results

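The 10 matrix metalloproteinase genes Mmp2, Mmp3, Mmp8, Mmp9, Mmp10, Mmp11, Mmp12, Mmp13, Mmp14 and Mmp19 were followed by name through RNA sequencing of a rat femoral defect, as 10 of 17379 measured features. Each was represented by 1 RefSeq transcript. The rats were SAS Fischer males of 200 to 225 g by their labels, which give no age or time of sampling. The normal healing group held hematoma from a 0.5 mm defect, the delayed healing group hematoma from a 1.5 mm defect, and the nonunion group hematoma from a 5.0 mm defect. The preOP group, the reference, held the healthy piece of femur taken out when 5.0 mm defects were made. No drug, gene change or implant is named for any group. Each group had 3 libraries. The labels do not say whether these came from separate animals, so p-values measure the spread between samples only.

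Matrix metalloproteinases are zinc enzymes that cut collagens and other proteins of the extracellular matrix. Most are secreted as inactive proenzymes, become active when a propeptide is cut off or displaced, and are blocked by the tissue inhibitors of metalloproteinases (TIMPs). In healing bone they are known for removing clot and cartilage matrix, opening paths for vessels and osteoclasts, and releasing growth factors held in matrix. Collagenases cut intact fibrillar collagen, gelatinases degrade its unwound fragments, stromelysins cut proteoglycans and activate other family members, and membrane-type enzymes act at the cell surface.

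Library totals ran from 16808993 to 24325162 estimated reads. Nonunion 2 stood apart. Ribosomal RNA took up 72.2% of that library and no more than 1.75% of any other, and it had 5 adipocyte genes summing to 8553 CPM against 443 and 509 CPM in the other nonunion libraries. CPM here means estimated reads brought to a common library size, with TMM scaling for library composition. Delayed 2 carried 4 skeletal muscle genes at 25494 CPM, against 143 and 878 CPM in the other delayed libraries. The normal files were also written differently, with 16.8% to 18.1% of read numbers given with a decimal point and 100% in the other groups. Transcript length exceeded the deposited effective length by a median of 157 to 192 bases in normal libraries and 194 to 255 in the others. Both differences set 1 group apart, so for every comparison with normal, batch and group cannot be told apart. Defining genes of bone cells were present in normal hematomas, where 5 osteoblast genes (Ibsp, Bglap, Alpl, Sp7 and Dlx5) summed to 1294 to 1580 CPM. They summed to 372 to 476 CPM in preOP, and to 6.17 to 12.5 CPM in delayed and nonunion hematomas together. Most of the normal sum was Ibsp, with a mean of 987 CPM. Bglap went the other way, averaging 77.7 CPM in normal and 227 CPM in preOP. In normal against preOP, 4 of the 5 were called higher and 1 lower (adjusted p below 0.05).

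Of the 10 genes, 5 lie on rat chromosome 8, where the RefSeq order on assembly GRCr8 is Dcun1d5, Mmp13, Mmp12, Mmp1b, Mmp3, Mmp1, Mmp10, Mmp8 and Mmp27. The other members are on chromosomes 19 (Mmp2), 3 (Mmp9), 20 (Mmp11), 15 (Mmp14) and 7 (Mmp19). RefSeq promoter windows, from 250 bases before to 50 bases after the gene start, were at hand for Mmp3, Mmp8, Mmp10, Mmp11, Mmp12 and Mmp13. The chromosome 8 windows of 4 members are shown because these neighbours differed in pattern: Mmp13 and Mmp3 were lower in the hematomas of larger defects, Mmp12 was nearly absent from femur, and Mmp8 was highest in femur. They are chr8:12782579-12782878 for Mmp13, chr8:12925031-12925330 for Mmp3, chr8:12866402-12866701 for Mmp12 and chr8:13008640-13008939 for Mmp8, all on the plus strand of GRCr8. Capitals mark matches to 3 motifs on either strand, namely AP-1 (TGAGTCA), RUNX (ACCACA) and PEA3 (AGGAAG).
Mmp13: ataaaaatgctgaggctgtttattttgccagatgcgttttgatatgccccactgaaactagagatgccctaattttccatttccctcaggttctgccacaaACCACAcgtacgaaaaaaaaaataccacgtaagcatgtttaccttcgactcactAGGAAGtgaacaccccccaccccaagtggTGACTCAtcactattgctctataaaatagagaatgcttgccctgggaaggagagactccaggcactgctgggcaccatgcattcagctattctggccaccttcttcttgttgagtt
Mmp3: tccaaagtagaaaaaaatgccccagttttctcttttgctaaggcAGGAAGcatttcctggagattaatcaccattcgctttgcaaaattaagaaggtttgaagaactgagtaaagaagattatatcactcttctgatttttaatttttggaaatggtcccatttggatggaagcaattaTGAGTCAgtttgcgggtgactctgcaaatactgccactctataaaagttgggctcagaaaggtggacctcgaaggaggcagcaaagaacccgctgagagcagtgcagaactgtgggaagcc
Mmp12: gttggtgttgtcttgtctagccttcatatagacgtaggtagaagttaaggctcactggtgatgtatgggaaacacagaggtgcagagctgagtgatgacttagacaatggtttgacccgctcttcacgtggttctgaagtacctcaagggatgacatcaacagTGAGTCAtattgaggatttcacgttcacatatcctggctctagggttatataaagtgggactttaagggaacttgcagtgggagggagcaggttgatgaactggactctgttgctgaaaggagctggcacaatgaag
Mmp8: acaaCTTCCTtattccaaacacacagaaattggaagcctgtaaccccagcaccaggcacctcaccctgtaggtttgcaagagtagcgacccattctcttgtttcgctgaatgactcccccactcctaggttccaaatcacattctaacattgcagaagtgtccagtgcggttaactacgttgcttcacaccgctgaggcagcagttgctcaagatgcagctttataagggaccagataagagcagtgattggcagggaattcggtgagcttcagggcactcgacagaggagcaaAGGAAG

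An AP-1 match was present in 4 of the 6 member windows, those of Mmp3, Mmp10, Mmp12 and Mmp13, against 4.63% of 33469 RefSeq promoter windows of the same length. AP-1 is the dimer of Fos and Jun proteins, a known activator of several collagenase and stromelysin genes. The match began 66 bases before the start in Mmp13, in reverse as TGACTCA, and 71 bases before it in Mmp3, 87 in Mmp12 and 61 in Mmp10. A RUNX match was present only in the Mmp13 window among the 6, 149 bases before the start, against 17.3% of all windows. RUNX motifs are bound by Runx2, the osteoblast regulator. PEA3, a motif of Ets factors, matched in 3 windows (Mmp3, Mmp8 and Mmp13) against 34.5% of all windows. The forward TATA motif (TATAAA, not in capitals) matched in Mmp3, Mmp10, Mmp12 and Mmp13 against 8.80% of all windows. Overlapping matches of different motifs numbered 0, and the Mmp11 window held no match to any of the 4 motifs. These are matches of letters and not measured binding.

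**Figure D1:**
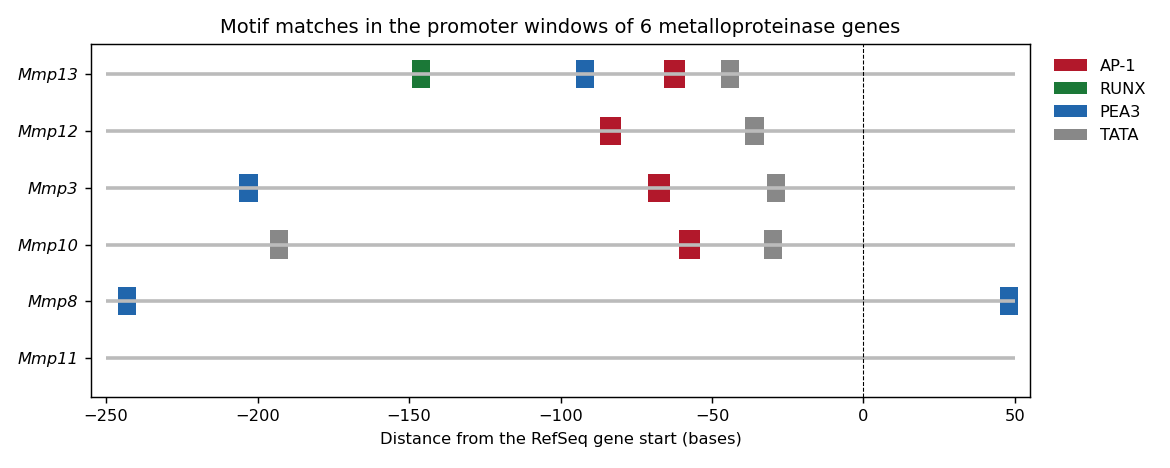
Positions of motif matches (coloured boxes) in the RefSeq promoter windows of 6 metalloproteinase genes (rows), by distance in bases from the gene start (dashed line). An AP-1 box lies between the start and 100 bases before it in Mmp13, Mmp12, Mmp3 and Mmp10, while Mmp8 and Mmp11 have none.

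The 10 transcripts together amounted to 436 to 1786 TPM (the authors' deposited level per transcript length, scaled to the same total in each library) in normal hematomas. The same sum was 281 to 591 TPM in delayed, 100.3 to 374 TPM in nonunion and 265 to 489 TPM in preOP libraries. The lowest value, 100.3 TPM, is nonunion 2, where ribosomal RNA took up 72.2% of the library and counts in the TPM total. Which enzyme led this pool of 10 transcripts differed by tissue. In femur, the neutrophil collagenase Mmp8 made up 52.6% to 74.5% of the pool and the gelatinase Mmp9 another 17.3% to 24.5%. In normal hematomas Mmp2, Mmp13 and Mmp14 were the leading genes of normal 2 and 3, whereas normal 1 was led by Mmp13, Mmp8 and Mmp2. Mmp13 held 17.7% to 33.4% of the normal pool but 0.516% to 0.703% in delayed and 0.0776% to 0.798% in nonunion. In those hematomas the pool was mostly Mmp14, Mmp2 and Mmp19, except that Mmp9 was the third gene of delayed 1.

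**Figure D2:**
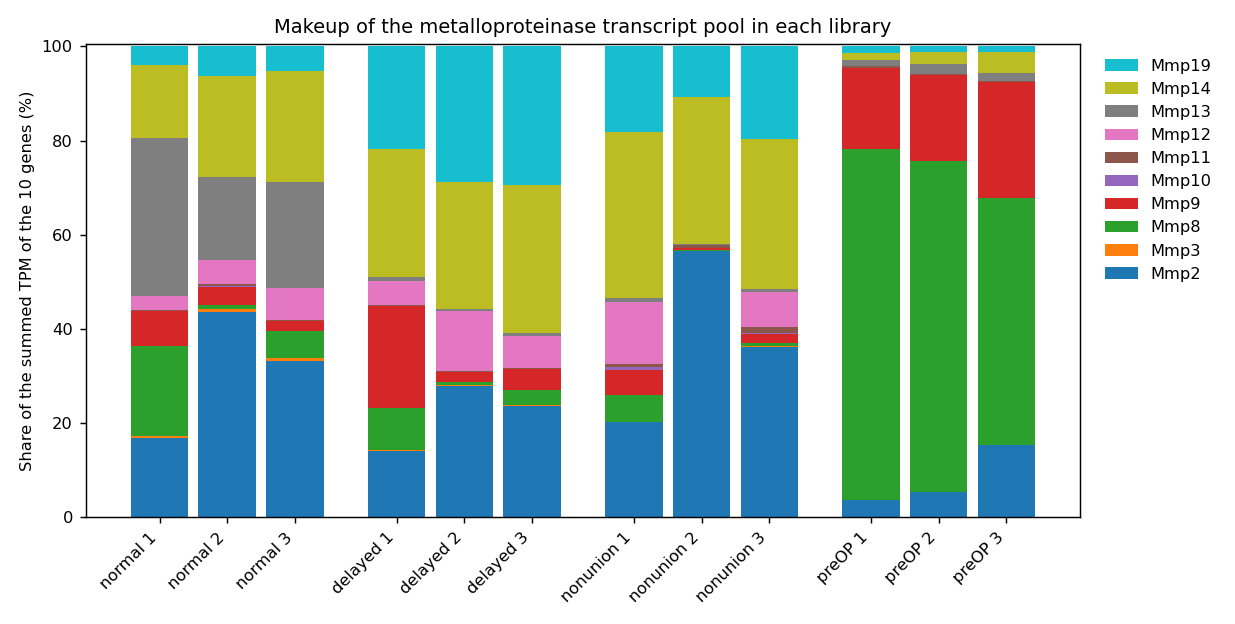
Share of each gene in the summed TPM of the 10 metalloproteinases (vertical axis, %), with 1 bar per library. Mmp8 and Mmp9 fill most of the 3 preOP bars, and the Mmp13 segment is wide only in the 3 normal bars.

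Because levels per length within 1 library do not depend on scaling between libraries, ratios of members were also taken within libraries. Mmp13 stood at 0.820 to 2.14 times the TPM of Mmp14 in normal libraries, and at 0.0192 to 0.0258 times in delayed. In nonunion this ratio was 0.00249 to 0.0252, and in preOP it was 0.372 to 0.812. Neither larger-defect group overlapped the normal or preOP libraries in this ratio. Mmp19 to Mmp14 was 0.220 to 0.289 in normal, 0.801 to 1.07 in delayed and 0.345 to 0.625 in nonunion, so these groups did not overlap one another. PreOP, at 0.250 to 0.841, overlapped all 3.

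**Figure D3:**
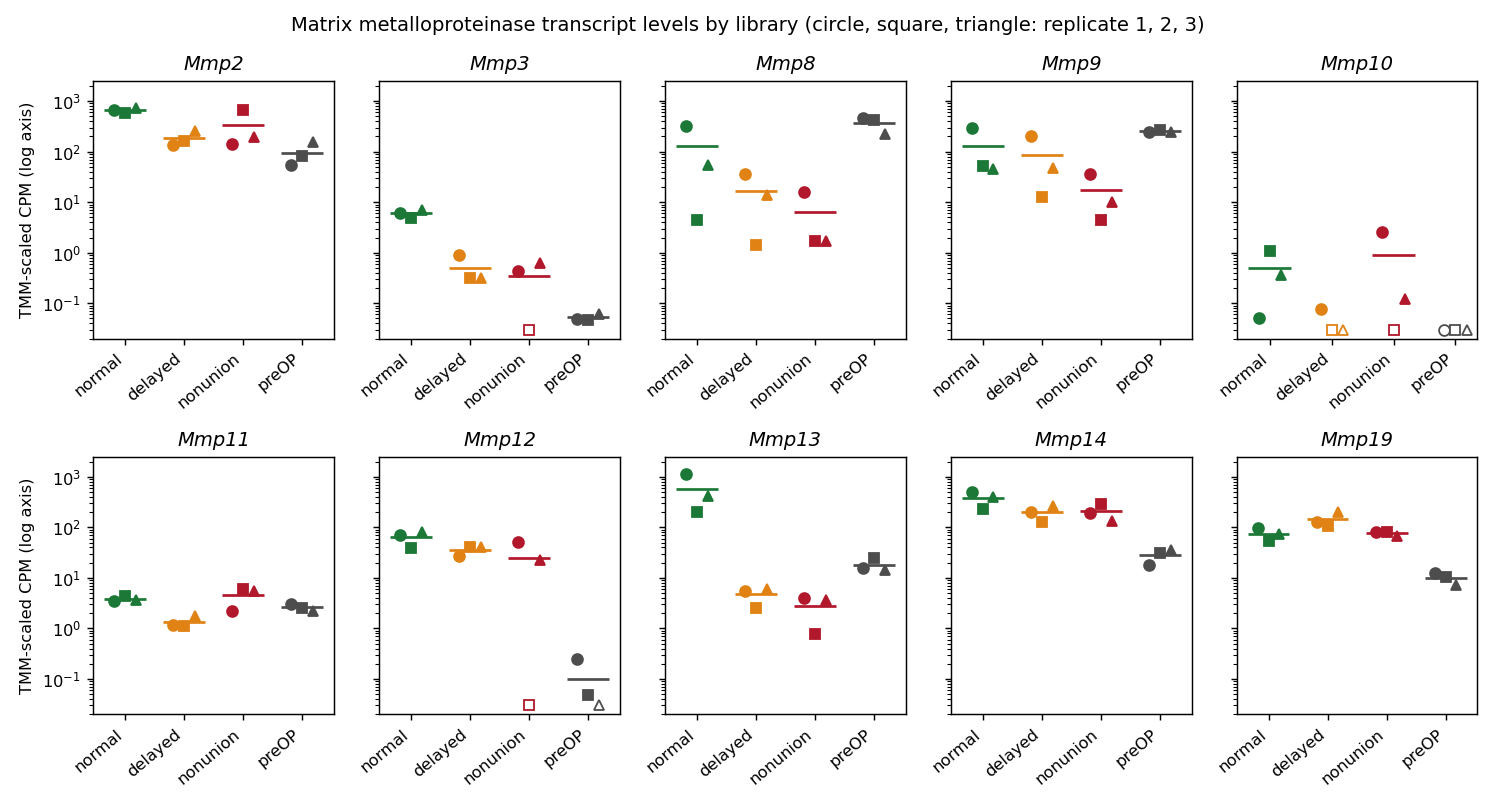
TMM-scaled CPM (log axis) of each gene in the 12 libraries, with circle, square and triangle for replicates 1, 2 and 3, a line at the group mean, and open symbols at 0.03 CPM for libraries with 0 reads. Mmp13 and Mmp3 are high in the 3 normal libraries, and Mmp8 and Mmp9 spread widely within each hematoma group.

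Differences between groups were tested with edgeR over all genes that passed a filter on low counts, and a call means an adjusted p (Benjamini-Hochberg) below 0.05. Of the 10 members, 9 passed this filter, and Mmp10 was not tested. Comparisons with normal ask how hematomas of defects that heal late or not at all differ from one that heals. In delayed against normal, 2 members were called lower (Mmp13 and Mmp3) and 0 higher, beside 4.45% lower and 2.68% higher among 12474 genes. In nonunion against normal the same 2 were called lower and 0 higher, against a background of 1.48% lower and 0.89% higher. These 2 comparisons share the normal libraries. In delayed the count was 1 in each fit that left out 1 library. In nonunion it was 1 without normal 1, normal 2, normal 3 or nonunion 1, and 0 without nonunion 3. In nonunion against delayed, 0 members were called, and of all genes 0% were called higher and 0% lower. In that comparison 2 members and 7.06% of all genes had an unadjusted edgeR p below 0.05, DESeq2 called 1 member and limma-voom 0.

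**Figure D4:**
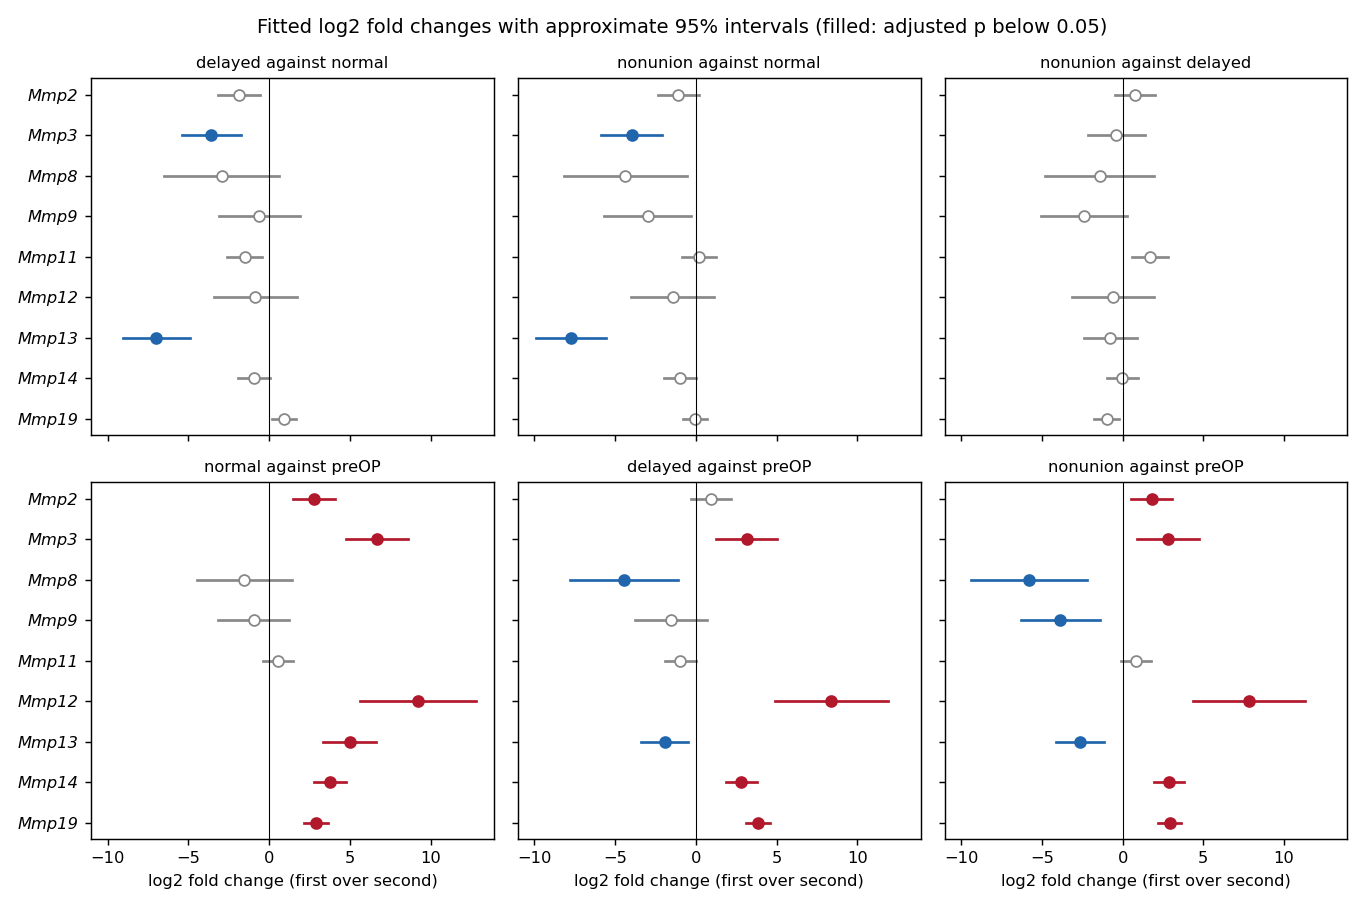
Log2 fold change of each tested gene (rows) in the 6 comparisons (panels), with bars for approximate 95% intervals, red for called higher, blue for called lower and open grey for not called. Mmp13 lies at -6.98 and -7.74 in the comparisons of delayed and nonunion with normal, and Mmp14 and Mmp19 are called higher in every comparison with preOP.

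Mmp13, collagenase-3, is made by hypertrophic chondrocytes and osteoblasts and cuts the fibrillar collagens of cartilage and bone. Of the members tested, it had the largest log2 fold changes in both comparisons with normal. Normal 1, 2 and 3 held 1137, 204 and 413 CPM of Mmp13, delayed libraries 5.60, 2.58 and 5.97 CPM, and nonunion libraries 3.92, 0.771 and 3.68 CPM. The lowest normal library lay above every delayed and nonunion library. The Mmp13 means were 585 ± 489 CPM (normal), 4.72 ± 1.86 CPM (delayed) and 2.79 ± 1.75 CPM (nonunion; SD, n = 3 each). It fell by 6.98 on the log2 scale in delayed (SE 0.92, edgeR adjusted p = 0.00809), and fell by 7.74 in nonunion (SE 0.96, edgeR adjusted p = 0.00866). In bulk tissue, fewer cells of a type and less RNA per cell cannot be told apart.

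The call of Mmp13 in delayed against normal held in all 15 alternative analyses, with an adjusted p of at most 0.0365. In nonunion against normal it was lost in 1 of 15, without nonunion 3 (log2 fold change -7.97, adjusted p = 0.0550). Between nonunion and delayed the difference was -0.76 on the log2 scale, with an approximate 95% interval of -2.42 to 0.89. Markers of bone cells moved with Mmp13: the 5 osteoblast genes all fell in delayed against normal and 4 of 5 fell in nonunion. Chondrocyte genes (Col2a1, Acan, Sox9, Ihh and Comp) fell in 3 of 5 and 4 of 5 cases, and summed to 186 to 442 CPM in normal, 26.4 to 33.0 in delayed and 4.62 to 54.0 in nonunion. Osteocyte genes summed to 213 to 360 CPM in normal and to at most 7.71 CPM in the delayed and nonunion libraries. No defining gene of these lists was at 0 in all libraries of a group, and the part of these cells in the Mmp13 difference was not tested.

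Femur had less Mmp13 than the healing hematoma but more than the others. PreOP libraries held 15.9, 24.5 and 14.2 CPM. Mmp13 was higher in normal than in preOP (log2 fold change 5.01, SE 0.74, edgeR adjusted p = 0.000573), and this call held in all 15 alternatives. It was lower than preOP in delayed (-1.94, SE 0.66, adjusted p = 0.0471) and in nonunion (-2.64, SE 0.68, adjusted p = 0.0143), with no overlap of libraries. The delayed call was lost in 11 of 15 alternatives, among them each fit without 1 delayed or preOP library, with an adjusted p of up to 0.197. The nonunion call was lost in 1 of 15, without preOP 2 (adjusted p = 0.0640). The osteoblast sum was lower in these hematomas than in preOP as well.

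Comparisons with femur set hematoma beside healthy bone taken out when 5.0 mm defects were made, and they all share the 3 preOP libraries. For normal, 6 members were higher and 0 lower, beside 20.5% higher and 22.1% lower among 12846 genes. For delayed, 4 were called higher and 2 lower, against 12.6% and 15.6% of all genes. In nonunion, 5 were called higher and 3 lower, against 13.5% and 14.9%. The total of 6 in delayed fell to 3 without delayed 1 or any 1 preOP library, and the total of 8 in nonunion fell to 4 without preOP 1 or preOP 2. The genes called higher in all 3 were Mmp3, Mmp12, Mmp14 and Mmp19.

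Mmp8, collagenase-2, is stored in neutrophil granules. PreOP libraries held 458, 430.1 and 222 CPM of Mmp8. Normal libraries held 327, 4.47 and 53.7 CPM, delayed libraries 35.5, 1.39 and 14.2 CPM, and nonunion libraries 16.1, 1.70 and 1.70 CPM. The hematoma groups overlapped one another, and normal 1 alone reached the preOP range. No comparison between hematomas was called with edgeR, with delayed against normal at -2.94 (95% interval -6.48 to 0.60) and nonunion against normal at -4.37 (-8.16 to -0.58). Without normal 1 these were -0.81 and -2.25 (adjusted p = 0.769 and 0.477), while DESeq2 called the second (-4.30, adjusted p = 0.0136). Against preOP, Mmp8 was lower in delayed by a log2 fold change of -4.44 (SE 1.52, edgeR adjusted p = 0.0495) and in nonunion by -5.80 (SE 1.63, edgeR adjusted p = 0.0214). The delayed call was lost in 10 of 15 alternatives, including each fit without 1 delayed or preOP library (highest adjusted p = 0.146). The nonunion call was lost in 3 of 15, without nonunion 2, nonunion 3 or preOP 1 (highest adjusted p = 0.0760).

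Mmp9, gelatinase B, is made by neutrophils, macrophages and osteoclasts and is needed for vessels to enter cartilage of the growth plate in mice. PreOP libraries were close together at 249, 266 and 241 CPM. Normal libraries held 294, 51.4 and 45.7 CPM, delayed libraries 201, 12.6 and 48.2 CPM, and nonunion libraries 36.7, 4.47 and 10.3 CPM. Nonunion lay below every normal library, while normal and delayed overlapped. Nonunion against normal was -2.99 (95% interval -5.71 to -0.27, edgeR adjusted p = 0.202) and nonunion against delayed was -2.40 (-5.05 to 0.26), neither called. The first was called with DESeq2 (adjusted p = 0.0470) and with the replicate block (adjusted p = 0.0304), and was -1.54 without normal 1 (adjusted p = 0.518). Delayed against normal was -0.60 (-3.12 to 1.93) and turned to 0.86 without normal 1. Against preOP, Mmp9 was lower in nonunion (-3.86, SE 1.12, edgeR adjusted p = 0.0248), a call lost in 5 of 15 alternatives, without nonunion 2, nonunion 3 or any 1 of the 3 preOP libraries (highest adjusted p = 0.0948).

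Summed neutrophil markers are given beside these granule enzymes. The sum of 5 mature neutrophil genes (S100a8, S100a9, Cxcr2, Csf3r and Fpr1) was 7178 to 9269 CPM in preOP and 8627 CPM in normal 1. It was 1363 and 1596 CPM in the other normal libraries, 72.6 to 934 CPM in delayed and 54.6 to 627 CPM in nonunion. Most of this sum was S100a8 and S100a9. Csf3r averaged 48.5 CPM in normal, 88.5 in delayed, 59.6 in nonunion and 114 in preOP. Of the mature neutrophil genes tested, 0 were called in delayed or nonunion against normal or in normal against preOP, and 3 of 5 were called lower in delayed and in nonunion against preOP. Of 6 neutrophil precursor genes tested between hematomas, 4 were called lower in delayed and 5 in nonunion against normal. Against preOP, 3 of 7 were called lower in normal, 6 in delayed and 6 in nonunion. The precursor genes summed to 325 to 2081 CPM in normal and 2738 to 3200 CPM in preOP. Their sum was 8.25 to 66.8 CPM in delayed and 4.59 to 14.4 CPM in nonunion. The library with the highest neutrophil sum in each hematoma group, replicate 1, also had the highest Mmp8 and Mmp9. Sums of 4 osteoclast genes lay at 133 to 743 CPM over the 9 hematomas and at 64.7 to 74.5 CPM in preOP. Of these 4, 3 were called higher than preOP in normal, 2 in delayed and 2 in nonunion, while Calcr averaged highest in preOP (0.745 CPM). Mmp9 was not called higher than preOP in any hematoma group. The part of neutrophils and osteoclasts in the Mmp8 and Mmp9 levels was not tested. Mmp9 had 0.232 to 0.467 times the TPM of Mmp8 in preOP, 1.42 to 3.81 times in delayed and 0.968 to 2.59 times in nonunion. In normal it ranged from 0.374 to 5.05 times, which overlapped every other group.

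**Figure D5:**
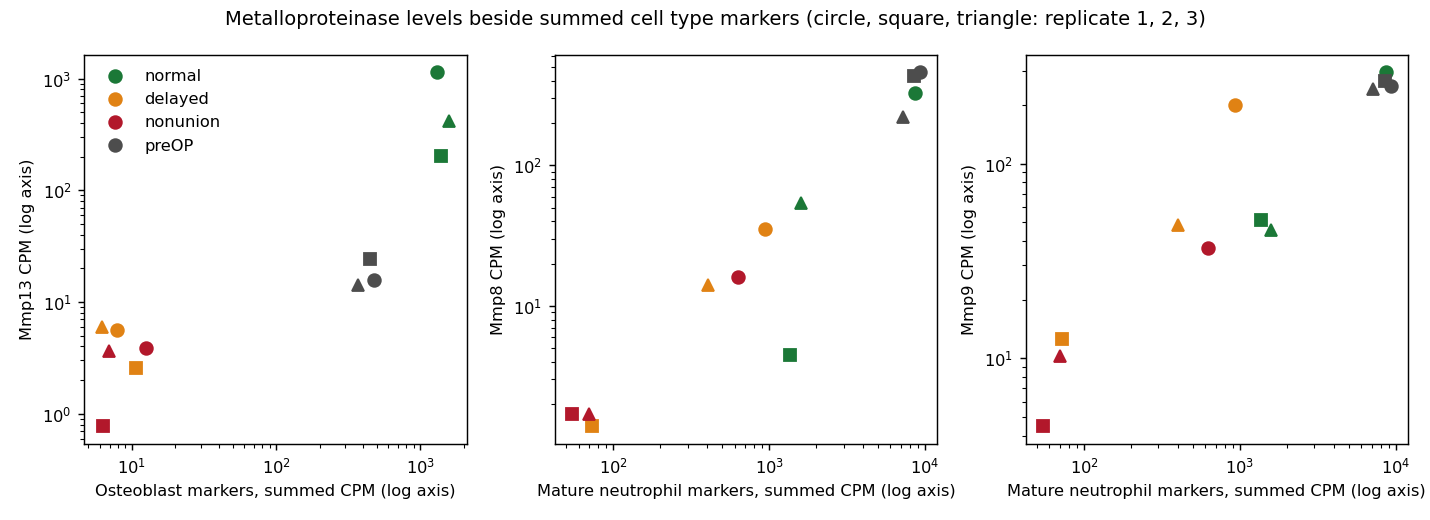
Mmp13 beside the summed CPM of 5 osteoblast genes, and Mmp8 and Mmp9 beside that of 5 mature neutrophil genes, on log axes with 1 point per library (circle, square and triangle for replicates 1, 2 and 3). Delayed and nonunion libraries lie at the lower left for Mmp13, and normal 1 lies beside the preOP libraries for Mmp8 and Mmp9.

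Mmp2, gelatinase A, is made widely by mesenchymal cells. Normal libraries held 681, 595 and 719 CPM, delayed libraries 133, 166 and 257 CPM, and nonunion libraries 139, 663 and 197 CPM, against 54.5, 80.3 and 153 CPM in preOP. All delayed libraries lay below all normal libraries, and in nonunion the library with 663 CPM was nonunion 2. Delayed against normal was -1.86 (SE 0.57, edgeR adjusted p = 0.0824) and nonunion against normal was -1.08 (SE 0.56, adjusted p = 0.313), neither called. Without delayed 2 and nonunion 2, both comparisons were called, at -1.69 (adjusted p = 0.0224) and -1.96 (adjusted p = 0.0344). Delayed against normal was also called with DESeq2 (adjusted p = 0.0199) and when only these groups were fitted (adjusted p = 0.0376).

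Against preOP, Mmp2 was higher in normal (2.79, SE 0.60, edgeR adjusted p = 0.00383), which held in all 15 alternatives. It was also called higher in nonunion (1.79, SE 0.57, adjusted p = 0.0376), which was lost in 5 of 15. These were the fits with only the groups compared, without delayed 2 and nonunion 2 (0.98, adjusted p = 0.0850), and without nonunion 2, preOP 1 or preOP 2. In delayed it was 0.95 above preOP (95% interval -0.29 to 2.18) and not called. The 6 fibroblast genes listed all rose in normal against preOP, at 10263 to 20814 CPM against 999 to 2200 CPM in sum, and their part in the Mmp2 level was not tested.

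Mmp14, a membrane-type enzyme, cuts collagen at the cell surface and activates the Mmp2 proenzyme together with Timp2. Normal libraries held 497, 233 and 408 CPM, delayed libraries 203, 125 and 268 CPM, and nonunion libraries 193, 290.3 and 137 CPM. PreOP libraries held 18.3, 31.0 and 35.6 CPM, all below every hematoma library. Mmp14 was called higher than preOP in normal (3.74, SE 0.45, edgeR adjusted p = 0.000197), delayed (2.81, SE 0.43) and nonunion (2.87, SE 0.43), and each call held in all 15 alternatives. The hematoma groups overlapped: delayed against normal was -0.95 (95% interval -1.94 to 0.04), nonunion against normal -0.97 (-1.96 to 0.03) and nonunion against delayed -0.01 (-0.995 to 0.97). The order of group means was normal, nonunion, delayed and preOP, of which only the step from delayed to preOP was called.

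Mmp19 is expressed by macrophages and vessel walls and cuts basement membrane proteins. Normal libraries held 99.0, 54.3 and 72.3 CPM, delayed libraries 130.3, 108 and 199.8 CPM, nonunion libraries 79.2, 80.5 and 68.4 CPM, and preOP libraries 12.3, 10.6 and 7.15 CPM. It was the only member with its highest mean in delayed hematomas, whose 3 libraries lay above all normal and nonunion libraries. Delayed against normal was 0.94 (SE 0.33, edgeR adjusted p = 0.122) and was not called, but it was called with DESeq2 and without delayed 2 and nonunion 2 (1.21, adjusted p = 0.0353). Nonunion against delayed was -1.001 (95% interval -1.75 to -0.25, adjusted p = 0.563), and nonunion against normal was -0.06 (-0.81 to 0.68). Against preOP, Mmp19 was called higher in normal (2.90, SE 0.33), delayed (3.86, SE 0.34, edgeR adjusted p = 8.03e-05) and nonunion (2.92, SE 0.33), in all 15 alternatives each.

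Mmp12, the macrophage elastase, was nearly absent from femur. PreOP libraries held 5, 1 and 0 reads, the last bounded by 3 reads. Normal libraries held 70.2, 39.2 and 82.1 CPM, delayed libraries 26.9, 41.6 and 40.6 CPM, and nonunion libraries 51.1, 0 and 22.3 CPM. The value of 0 is nonunion 2, in which 3 reads correspond to 0.462 CPM. Mmp12 was called higher than preOP in normal (9.20, SE 1.63, edgeR adjusted p = 0.00149), delayed (8.39, adjusted p = 0.00326) and nonunion (7.83, adjusted p = 0.00450). The normal and delayed calls held in all 15 alternatives, and the nonunion call was lost with limma-voom (adjusted p = 0.0766). Between hematomas it was not called (-0.85, -1.45 and -0.60 for delayed against normal, nonunion against normal and nonunion against delayed). The 8 macrophage genes summed to 995 to 2041 CPM over the hematomas, nonunion 2 included, and to 528 to 877 CPM in preOP. Against preOP, 3 of the 8 were called higher in normal, 4 in delayed and 4 in nonunion. Cd163 and C1qa, however, averaged 118 and 173 CPM in preOP against 51.1 and 106 CPM in normal. The part of macrophages in the Mmp12 level was not tested.

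Mmp3, stromelysin-1, cuts proteoglycans and activates other proenzymes, and Mmp10, stromelysin-2, is its close relative. The split of reads between them was uncertain. Estimated reads of each were not whole, within 0.001, in 4 libraries, while the sum of both was whole in all 12 (in nonunion 1, 11.1 and 65.9 reads that sum to 77). The other 8 members had whole reads throughout. Normal libraries held 124, 78 and 158 reads of Mmp3, delayed libraries 23, 6 and 8, nonunion libraries 11, 0 and 15, and preOP libraries 1 each.

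The Mmp3 means were 6.04 ± 1.18 CPM (normal), 0.505 ± 0.327 CPM (delayed) and 0.352 ± 0.318 CPM (nonunion; SD, n = 3 each), and normal overlapped neither of the others. It was called lower in delayed (-3.57, SE 0.81, edgeR adjusted p = 0.0351) and in nonunion (-3.97, SE 0.83, adjusted p = 0.0452). Neither call held in every alternative, though both held without delayed 2 and nonunion 2 (adjusted p = 0.0130 and 0.0227). In delayed it was lost in 7 of 15 alternatives, namely the replicate block (adjusted p = 0.0504) and each fit without 1 normal or delayed library (highest adjusted p = 0.111). In nonunion it was lost in 8 of 15, among them the fits without normal 1, 2 or 3 and without nonunion 1 or 3 (highest adjusted p = 0.146). Against preOP, with 3 reads in all, pooled reads of Mmp3 were 118-fold higher in normal (exact 95% counting interval 40.2 to 577). They were 10.1-fold higher in delayed (3.21 to 51.3) and 8.94-fold higher in nonunion (2.74 to 46.1). All 3 were called with edgeR (adjusted p = 0.000302, 0.0185 and 0.0327). The normal call held in all alternatives. The delayed call was lost without delayed 1 or any 1 preOP library, and the nonunion call with limma-voom and without nonunion 1, nonunion 3 or any 1 preOP library.

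Mmp10 had 1, 18 and 8 reads in normal, 2, 0 and 0 in delayed, 66, 0 and 3 in nonunion and 0 in each preOP library. Most nonunion reads thus came from nonunion 1. Pooled reads were 16.2-fold higher in normal than in delayed (counting interval 4.08 to 141) and 43.3-fold higher in nonunion than in delayed (11.6 to 365). Against preOP, mean CPM was at least 3.19-fold higher in normal and 5.76-fold higher in nonunion, with 3 reads per library as the bound. The nonunion mean rests on nonunion 1, at 2.61 CPM, beside 0 and 0.124 CPM in nonunion 2 and 3. The counting intervals cover counting error only and not the spread between libraries.

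Mmp11, stromelysin-3, acts on serpins more than on matrix and was low throughout. Normal libraries held 3.46, 4.41 and 3.65 CPM, delayed libraries 1.15, 1.13 and 1.73 CPM, nonunion libraries 2.22, 6.17 and 5.42 CPM, and preOP libraries 3.01, 2.60 and 2.22 CPM. Delayed lay below the other 3 groups without overlap. None of its comparisons was called with edgeR: delayed against normal was -1.52 (SE 0.49, adjusted p = 0.0927), nonunion against normal 0.19 (SE 0.48) and nonunion against delayed 1.71 (SE 0.49, adjusted p = 0.472). DESeq2 called the last of these (adjusted p = 0.0453) and delayed against normal.

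Among other metalloproteinases, 11 of 12 listed genes were measured, and 7 were tested between hematomas, with 0 called in each of the 3 comparisons. Against preOP 8 were tested: 3 rose in normal, 1 in delayed and 2 in nonunion, and 0 fell. Of all genes tested, 20.5% were called higher in normal, 12.6% in delayed and 13.5% in nonunion, and 22.1%, 15.6% and 14.9% lower. Against normal, 4.45% were called lower and 2.68% higher in delayed, and 1.48% and 0.89% in nonunion. These shares belong beside the counts of every gene list here. Mmp23 rose in all 3, from 6.10 CPM in preOP to 47.4 in normal (2.96, SE 0.60), 30.8 in delayed (2.34, SE 0.59) and 38.7 in nonunion (2.66, SE 0.60). The membrane-type gene Mmp15 rose in normal (2.31, SE 0.70) and nonunion (2.95, SE 0.71), and the membrane-type gene Mmp16 in normal (1.40, SE 0.45).

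Of 9 tested genes of proenzyme activation, 1 fell in each comparison with normal, the neutrophil and mast cell protease cathepsin G, Ctsg. Its mean was 52.7 CPM for normal, 1.77 for delayed (-4.91, SE 1.06) and 0.604 for nonunion (-6.65, SE 1.19). Against preOP, 3 rose and 2 fell in normal, 2 rose and 3 fell in delayed, and 3 rose and 3 fell in nonunion. The plasminogen activators rose in all 3: Plau from 12.3 CPM in preOP to 135, 189 and 341 CPM in normal, delayed and nonunion, and Plat from 6.28 CPM to 147, 138 and 90.5 CPM. Ctsg, at 303 CPM in preOP, fell in all 3, as did the mast cell chymase Cma1, from 202 CPM to 2.21, 0.448 and 7.38 CPM. The neutrophil elastase Elane fell in delayed and nonunion (-5.03 and -6.40) and was at -1.93 in normal (adjusted p = 0.154), not called.

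Inhibitors had 0 of 7 tested genes called in any comparison between hematomas. Against preOP, Timp1, Timp2 and the broad protease inhibitor A2m rose in each hematoma group, and 1 gene fell in nonunion (Serpinb2, -3.70, SE 1.13). Timp1 averaged 12.5 CPM in preOP, 686 in normal (5.78, SE 0.62), 276 in delayed (4.47, SE 0.58) and 214 in nonunion (4.10, SE 0.57). Timp2, the partner of Mmp14, averaged 67.2 CPM in preOP and 467, 225 and 299 CPM in these groups. Mmp14 stood at 0.275 to 0.735 times the TPM of Timp2 in normal and 0.182 to 0.343 times in preOP, so these ranges overlapped. In nonunion this ratio was 0.295 to 0.542, which overlapped preOP, and in delayed it was 0.470 to 0.750, which did not.

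Of 12 tested matrix substrates, 0 were called in delayed against normal and 1 fell in nonunion against normal, the cartilage collagen Col2a1 (69.8 against 0.0821 CPM; -9.39, SE 1.92). Against preOP, 11 rose in normal, 8 in delayed and 8 in nonunion, and 0 fell. Col3a1, a collagen of early repair tissue, rose in normal, delayed and nonunion (4.19, 3.72 and 3.61 on the log2 scale), with 633 CPM in preOP. Fibronectin, Fn1, rose from 439 CPM to 3369, 7818 and 3341 CPM.

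Of 20 tested regulators of metalloproteinase transcription, 2 fell in delayed against normal and 1 in nonunion against normal, all AP-1 subunits. Jund had a mean of 119 CPM for normal, 22.8 for delayed (-2.38, SE 0.40, edgeR adjusted p = 0.0139) and 25.9 for nonunion (-2.26, SE 0.40, adjusted p = 0.0278). Junb averaged 153, 29.1 and 29.4 CPM and was called in delayed against normal (-2.38, SE 0.60, adjusted p = 0.0477). Its value in nonunion against normal, not called, was -2.42 (SE 0.60, adjusted p = 0.0690). The other AP-1 subunits listed were not called in either comparison with normal. In delayed against normal, Fosb (1.97), Fos (1.58), Fosl1 (0.38) and Fosl2 (0.36) were higher and Jun (-0.27) lower. In nonunion against normal, Fosl2 (0.23) and Fosl1 (0.09) were higher, and Jun (-0.65), Fos (-0.30) and Fosb (-0.19) lower. Runx2 averaged 58.7, 35.5, 29.9 and 46.0 CPM in normal, delayed, nonunion and preOP and was not called in any comparison. Whether binding of AP-1 or Runx2 to the promoters shown above differed was not measured. Against preOP 7 rose and 2 fell in normal, 7 rose and 0 fell in delayed, and 6 rose and 0 fell in nonunion. Fosl1, another AP-1 subunit, rose in all 3 (2.54, 2.91 and 2.69), as did Bsg (2.55, 1.93 and 1.55), a surface inducer of metalloproteinases, and the inflammatory cytokine Il6 (6.13, 7.18 and 6.39). In nonunion against delayed, 0 genes of these 5 lists were called.

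The median log2 fold change in delayed against normal was -0.60 for the other metalloproteinases, -0.30 for proenzyme activation, -0.41 for inhibitors, -0.32 for substrates and 0.35 for regulators, beside 0.02 for all genes tested. In nonunion against normal these medians were 0.41, -0.46, -0.17, -0.94 and 0.15, beside -0.03 for all genes.

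Genes whose log2 CPM followed a member most closely over the 12 libraries were ranked by Pearson r, as a description only, since the libraries share groups, depth and composition. For Mmp13 they were Rnase3 (r = 0.967, 12 libraries), Irx5 (0.956) and Dlx3 (0.953). For Mmp8 they were F2rl2 (r = 0.966), Hp (0.964) and the neutrophil receptor gene Fpr1 (0.961), and for Mmp9 Cldn10, Srgn and Stx11 (0.952 to 0.947). Mmp14 was closest to Tmem184b, the collagen gene Col3a1 and Arl6 (0.974 to 0.972), and Mmp19 to S1pr3, Nid2 and Myadm (0.974 to 0.969). For Mmp12 they were Gramd2b, Pax8 and Srp54a (0.982 to 0.975), and for Mmp3 Selenof, Tusc3 and Tafa5 (0.974 to 0.961). For Mmp2 the named ones were Tmem255b and Dnm3 (0.966 and 0.964), after 1 transcript with no gene name.

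Among the members themselves, Mmp8 and Mmp9 had the highest r over the 12 libraries (0.919), followed by Mmp14 with Mmp19 (0.859) and Mmp14 with Mmp2 (0.839). Mmp13 was closest to Mmp3 (0.777). Of the other members on chromosome 8, Mmp12, the gene next to it, had an r of 0.334 with Mmp13, Mmp8 0.512 and Mmp10 0.226. These values too describe shared groups as much as single libraries.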

How the data were processed

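Per the labels' protocols, hematoma and bone were flash frozen, RNA was extracted with Trizol, and 1 ug went into an Illumina TruSeq library. Per the submitters' processing notes, the authors used bcl2fastq 1.8.4, FastQC, Trimmomatic and Salmon with genome build rn6. Their deposited files hold, per the file headers, estimated counts, TPM and effective lengths for 18321 RefSeq transcripts in each of 12 libraries. The authors' deposited TPM are per length and were used to describe levels within libraries. The estimated counts, which the authors did not scale, were rounded, then added up per symbol in RefSeq tables (17367 transcripts matched to 16425 symbols, 954 kept as single features). Promoters came from RefSeq on GRCr8, used also for gene order.

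Tests were two-sided quasi-likelihood F-tests in edgeR 4.0.16 (R 4.3.3) with TMM scaling and filterByExpr by group, adjusted over all genes tested. Hematomas were compared in a fit of 9 libraries (12474 genes), and preOP in a fit of 12 (12846 genes). The SE was derived from the log2 fold change and the root of its F statistic. Alternatives were DESeq2 1.42.0 as the test or for size factors only, limma-voom (limma 3.58.1), the replicate block, no filter for low counts, only the groups compared, no ribosomal RNA, effective lengths as offsets, no delayed 2 and nonunion 2, and leaving out each library. With only the groups compared, Mmp3 did not pass the filter in delayed and nonunion against preOP and was not tested. The same held for Mmp12 in nonunion against preOP. The members and gene lists were chosen with earlier results of these data known. All members are named, with up to 4 called genes per list and comparison by size of change, of which the text gives a part, and the 3 genes closest to each member. A gene named by this rule in 1 comparison is also given in the others. Other AP-1 subunits, Runx2 and markers that went against their sums are named outside this rule. In a library, 3 reads, the bound for a count of 0, equal 0.115 to 0.462 CPM. Intervals of 95% on pooled reads are exact binomial and cover counting error only. The method was tested on simulated data. Pairs of libraries with identical counts numbered 0. Listed genes not analysed here were Mmp25, Reck, Col4a2, Col10a1, Ocstamp, Dcstamp, Mpo and Mylpf. Some items of the lists are not reported here.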

Additional observations from a re-analysis of the deposited data

How the results depend on the processing

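The number of members called in delayed against normal, 2 in the reported analysis, was 1 with the replicate block, 5 with DESeq2, 4 without delayed 2 and nonunion 2, and 1 in every fit that left out 1 library. In nonunion against normal, also 2, it was 1 without the filter on low counts, 4 with DESeq2, 1 with only the groups compared, and 0 to 2 when each library was left out. In nonunion against delayed, 0, it was 1 with DESeq2 and 0 in every fit that left out 1 library. Against preOP, leaving out each library always gave 6 (normal, 6 reported), 3 to 4 (delayed, 6 reported) and 4 to 8 (nonunion, 8 reported). Only the groups compared gave 5 in nonunion, where Mmp2 lost its call and Mmp3 and Mmp12 were not tested. All calls moved as well: in delayed against normal, 889 genes became 433 with the block, 2035 with DESeq2, 2076 without delayed 2 and nonunion 2, and 176 to 726 when each library was left out. In nonunion against normal, 296 became 242 without the filter, 1311 with DESeq2, 198 with only the groups compared, and 23 to 159 when each library was left out. In 23 cases, counting each member and alternative, the sign of a value turned, each for a member uncalled in the reported comparison. For Mmp9 in delayed against normal the value was 0.0052 without delayed 2 and nonunion 2, and -2.11 to 0.86 when each library was left out (above 0 without normal 1). For Mmp19 in nonunion against normal it was 0.0359 with DESeq2 size factors, 0.0022 without the filter, 0.0355 with DESeq2, 0.0374 without ribosomal RNA, and -0.17 to 0.20 when each library was left out (above 0 without normal 1 or nonunion 2). Mmp11 in that comparison was -0.0253 with limma-voom. In nonunion against delayed, Mmp14 was 0.0137 with DESeq2 size factors, 0.042 without the filter, 0.0771 with the replicate block, 0.0134 with DESeq2, 0.0394 with limma-voom, 0.0662 with only the groups compared, and -0.33 to 0.28 when each library was left out. Mmp2 there was -0.27 without delayed 2 and nonunion 2, and Mmp12 was 0.0445. Leaving out each library gave -0.20 to 1.14 for Mmp2 (below 0 without nonunion 2) and -0.94 to 0.29 for Mmp3 (above 0 without delayed 1). The cause was not tested. Libraries were not treated as paired by replicate number: same-numbered deviations from group means correlated at -0.18 to 0.19 over the comparisons. This check cannot exclude pairing, since all 6 libraries fell closest to their own number in nonunion against delayed (r 0.0673 to 0.109). That held in no other comparison. The replicate block, which gave 1 call in delayed against normal, gave 2, 0, 7, 7 and 8 calls in the other comparisons. In nonunion against normal it lost Mmp3 (adjusted p = 0.0621) and gained Mmp9 (0.0304). It also gained Mmp8 in normal against preOP (0.0482) and Mmp9 in delayed against preOP (0.0238). With 3 libraries a group, Mmp3 and Mmp10, at few reads, are limited by depth.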
